A study of Rattus rattus with 24 samples.

Results

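The genes described here supply acetyl-CoA and NADPH for fatty acid synthesis, build the carbon chain and then lengthen or desaturate it. The set held 10 genes, Acss2, Aacs, Acly, Me1, Acaca, Fasn, Elovl6, Scd, Fads1 and Fads2, found by their symbols in the probe annotation of the array. No expression value entered that rule, but the genes were chosen with earlier results of these data known. They had 14 probe sets with a single gene symbol, of 31042 probe sets tested in all, and were 10 of the 14217 genes with such a probe set. Where a gene had more than 1 probe set, the one with the highest mean over all arrays stood for it. The cells were rat oligodendrocyte precursor cells (OPCs), taken from the cortex of pups of postnatal day 4 to 7 with A2B5 microbeads and expanded with PDGF. The labels name the species Rattus rattus, while the methods name Sprague Dawley rats, a laboratory strain of Rattus norvegicus, and this was not resolved. The cells were then kept in OPC media with T3 (45 nM thyroid hormone) plus quetiapine (1 μM, an atypical antipsychotic), with quetiapine alone, with T3 alone, or with DMSO vehicle as control. RNA was taken after 48 or 96 hours from 3 biological replicates, each of which supplied a culture of every condition, which gave 24 arrays in 8 groups of 3. All groups shared the B27 supplement of the medium, which itself carries some T3, so control cultures were not free of the hormone.

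As background, cytosolic acetyl-CoA is the building block of fatty acids and of cholesterol. Acly makes it from citrate and Acss2 from acetate, while Aacs activates the ketone body acetoacetate. Acaca carboxylates acetyl-CoA to malonyl-CoA, and Fasn uses malonyl-CoA and NADPH, part of it from Me1, to build palmitate. Elovl6 lengthens palmitate to stearate, Scd places the first double bond in stearate, and Fads1 and Fads2 desaturate polyunsaturated fatty acids. Oligodendrocytes make large amounts of lipid for myelin, and many of these genes are targets of SREBP transcription factors. Fasn, Me1 and Scd are also known from liver as genes that respond to thyroid hormone.

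Values are log2 expression as the authors deposited them, after RMA normalization, and those of replicates 1, 2 and 3 are given in that order. A difference of 1 on this scale is a doubling. Changes were tested with limma on the 12 arrays of a time, with Benjamini-Hochberg adjustment across the 31042 probe sets, and a gene was called at an adjusted p under 0.05. Since each biological replicate gave a culture of every condition, arrays of the same replicate number were taken as belonging together. The fit was therefore repeated with that number as a block, and its result is given where it changed a call. The fit without the block leaves differences between replicates in its spread. The medians of the arrays lay between 6.43 and 6.51.

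In cultures of this kind cells of several stages and types share the RNA. At 96 hours 10 of 10 measured oligodendrocyte markers were higher with T3+quetiapine than in control, 8 with quetiapine and 9 with T3, where 15.2%, 4.21% and 6.58% of all genes were higher. The arrays' mean log2 expression of that list at 96 hours was 11.89 to 12.71 with T3+quetiapine, 11.25 to 11.92 with quetiapine, 11.47 to 12.30 with T3 and 9.87 to 10.22 in control. At 48 hours it was 9.75 to 10.60, 9.31 to 9.94, 9.70 to 10.37 and 9.23 to 9.30 in the same groups. In the 3 treatments 1, 0 and 0 markers were called at 48 hours, where 3.12%, 0.134% and 1.06% of all genes were higher. With the block 5, 1 and 4 were called, where 10.8%, 1.86% and 5.44% of all genes were higher. The 10 measured astrocyte markers averaged 9.40 to 9.86, 9.52 to 10.27, 9.92 to 10.54 and 10.28 to 10.73 in the same order of groups at 96 hours. Of these, 6 were lower and 1 was higher with T3+quetiapine, where 20% of all genes were lower. Of 8 precursor markers 3 were lower, Cspg5 (−1.26), Ptprz1 (−0.89) and Lhfpl3 (−0.81), and Olig1 was higher (0.25). With the block Cspg4 (−0.92) and Pdgfra (−0.73) were lower as well, and Olig2 (0.38) was higher. Of 10 vascular and fibroblast markers Tagln (−3.35) and Pdgfrb (−1.44) were lower and Col1a1 (0.48) was higher. Of 10 neuron markers Rbfox3 (−1.21) and Map2 (−1.12) were lower, and Nefm (1.42) and Syt1 (0.35) higher. With the block the neuron markers Stmn2 (−1.43), Gad1 (−1.39) and Slc17a6 (−0.26) were lower as well. Of 5 Schwann cell markers Ngfr (2.54) and Erbb3 (1.81) were higher, while Prx (−0.32), Egr2 (−0.09) and Sox10 (0.08) were called in neither fit. Ngfr was dim, with a mean of 4.95 over all arrays. These are log2 changes with T3+quetiapine at 96 hours, where 20% of all genes were lower and 15.2% higher. With the block 27.6% were lower and 19.9% higher. The shares of vascular and neuron markers lower without the block lay near that of all genes. For the 96-hour oligodendrocyte markers and the astrocyte and vascular markers only calls without the block are given. None of the 11 microglia markers was called in any treatment against control by limma, with or without the block, and replicate 2 of the 48-hour control stood above the other controls of that time for this list, at 6.44 beside 5.22 and 5.37. Their part in the results below was not tested. In bulk RNA, fewer cells of a type and less RNA per cell cannot be told apart.

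**Figure D1:**
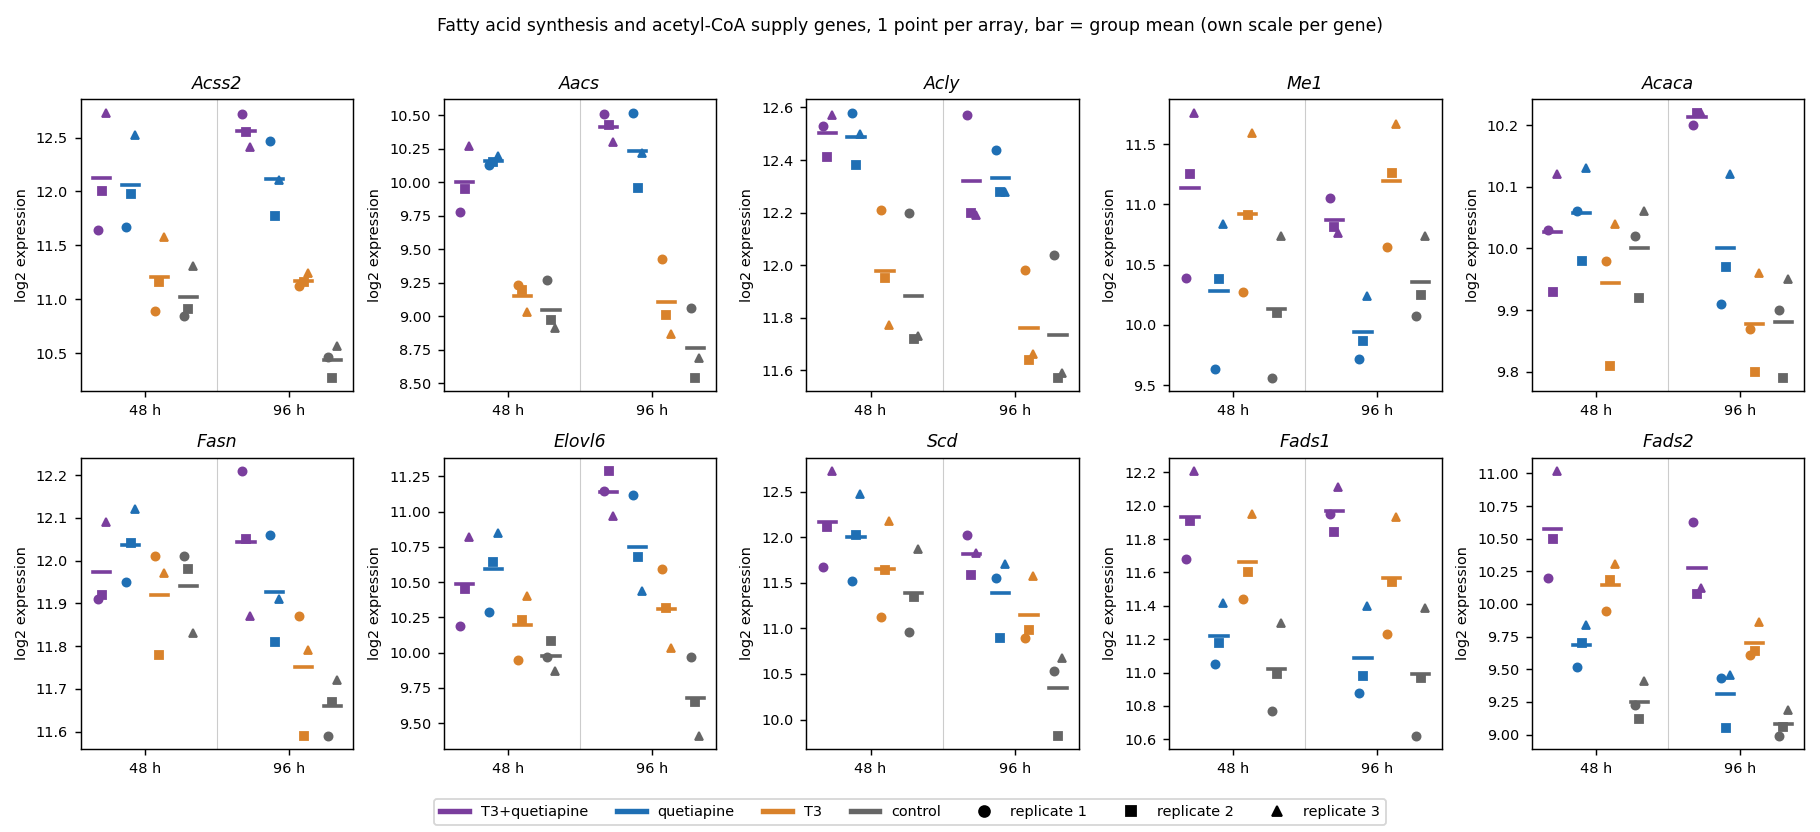
Log2 expression of each of the 10 genes on each array, in 1 panel per gene with its own vertical scale. Within 48 and 96 hours the groups run T3+quetiapine, quetiapine, T3 and control, the symbols mark replicates 1 to 3 and the bars the group means of 3 arrays. At 96 hours every T3+quetiapine value lies above every control value in all 10 panels, while the 48-hour values of Me1, Scd and Acss2 spread with the replicate.

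The genes that supply acetyl-CoA and acetoacetyl-CoA were higher with quetiapine, alone or with T3, at both times. Acss2 at 96 hours was at 12.72, 12.55 and 12.41 with T3+quetiapine, 12.47, 11.77 and 12.11 with quetiapine, 11.12, 11.16 and 11.24 with T3, and 10.46, 10.27 and 10.57 in control. The T3, quetiapine and control values did not overlap with each other, and the T3+quetiapine values overlapped only with those of quetiapine. The log2 change against control was 2.13 with T3+quetiapine (standard error 0.16, adjusted p = 5.7e-06 from limma), a 4.37-fold rise and the largest among the 10 genes. It was 1.69 with quetiapine (adjusted p = 0.000158) and 0.74 with T3 (adjusted p = 0.012). At 48 hours Acss2 was at 11.64, 12 and 12.73 with T3+quetiapine, 11.67, 11.98 and 12.52 with quetiapine, 10.89, 11.16 and 11.58 with T3, and 10.84, 10.91 and 11.31 in control. Replicate 3 was the highest in each of these groups, and both groups with quetiapine lay above control without overlap. Its 48-hour changes of 1.10 with T3+quetiapine (adjusted p = 0.0547 without and 6.88e-05 with the block) and 1.03 with quetiapine (0.349 without, 0.00117 with) were called only with the block.

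Aacs, the acetoacetyl-CoA synthetase, was called at 48 hours without the block. Its 48-hour values were 9.78, 9.95 and 10.27 with T3+quetiapine, 10.13, 10.15 and 10.20 with quetiapine, 9.23, 9.20 and 9.03 with T3, and 9.27, 8.97 and 8.91 in control. Both groups with quetiapine lay above both groups without it. Quetiapine raised it by 1.11 (standard error 0.13, adjusted p = 0.0117), and T3+quetiapine by 0.95 (adjusted p = 0.00242). The call with quetiapine was lost without replicate 2 or 3 of quetiapine or of control (highest adjusted p = 0.0754). At 96 hours Aacs was at 10.51, 10.43 and 10.30 with T3+quetiapine, 10.52, 9.96 and 10.22 with quetiapine, 9.43, 9.01 and 8.87 with T3, and 9.06, 8.54 and 8.69 in control. The lowest value with quetiapine was above the highest of T3 and of control, and T3 and control overlapped. It rose by 1.65 with T3+quetiapine (adjusted p = 8.18e-05) and by 1.47 with quetiapine (adjusted p = 0.00103), while the change with T3 was 0.34 (adjusted p = 0.286, and 0.0361 with the block).

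Acly, the ATP citrate lyase, had a smaller change that was present at both times. At 96 hours it was at 12.57, 12.20 and 12.19 with T3+quetiapine, 12.44, 12.28 and 12.28 with quetiapine, 11.98, 11.64 and 11.66 with T3, and 12.04, 11.57 and 11.59 in control. Replicate 1 was the highest in all of these groups. Acly rose by 0.59 with T3+quetiapine (standard error 0.15, adjusted p = 0.0133) and by 0.60 with quetiapine (adjusted p = 0.0425), folds of 1.5 and 1.52, and its change with T3 was 0.03 (95% interval −0.30 to 0.37). Without control replicate 2 or 3 the T3+quetiapine call was lost (highest adjusted p = 0.0546). The quetiapine call was lost without any 1 of the 96-hour arrays but replicate 1 of T3+quetiapine, T3 or control (highest adjusted p = 0.153). With the block both calls stood, at adjusted p = 0.000116 and 0.000459. At 48 hours Acly was at 12.53, 12.41 and 12.57 with T3+quetiapine, 12.58, 12.38 and 12.50 with quetiapine, 12.21, 11.95 and 11.77 with T3, and 12.20, 11.72 and 11.73 in control. The groups with quetiapine lay above those without it. The 48-hour rise of 0.62 with T3+quetiapine was called (adjusted p = 0.0299), though not without control replicate 2 or 3 or without any 1 of the T3+quetiapine arrays (highest adjusted p = 0.119). The change of 0.60 with quetiapine was called only with the block (adjusted p = 0.206 without it, 0.0121 with it).

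Me1, the cytosolic malic enzyme that yields NADPH, followed T3 and not quetiapine. At 96 hours it was at 11.05, 10.81 and 10.76 with T3+quetiapine, 9.72, 9.87 and 10.24 with quetiapine, 10.65, 11.26 and 11.67 with T3, and 10.07, 10.25 and 10.74 in control. Replicates 1 to 3 of T3 were each above the control of the same number, and those of quetiapine each below it. The change with T3 was 0.84 (standard error 0.25, adjusted p = 0.0501, and 0.00911 with the block), and with quetiapine −0.41 (95% interval −0.95 to 0.13, adjusted p = 0.404). The second probe set of Me1, which correlated with the first at Pearson's r = 0.993 over the 24 arrays, changed by 0.91 with T3 and was called (adjusted p = 0.0239). Set directly against T3, Me1 was lower with quetiapine, with a log2 change of −1.25 (adjusted p = 0.0244), a call that was lost without quetiapine replicate 1 or 2 or T3 replicate 2 or 3 (highest adjusted p = 0.108). With T3+quetiapine the change against control was 0.52 and was not called in either fit (adjusted p = 0.146, and 0.0508 with the block). The lowest of the T3+quetiapine values was just above the highest control.

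At 48 hours Me1 differed between replicate numbers by as much as between treatments. Its values were 10.39, 11.25 and 11.76 with T3+quetiapine, 9.63, 10.38 and 10.84 with quetiapine, 10.27, 10.91 and 11.59 with T3, and 9.56, 10.10 and 10.74 in control. The groups overlapped, with replicate 1 lowest and replicate 3 highest in each. The changes of 1.00 with T3+quetiapine and 0.79 with T3 had adjusted p values of 0.236 and 0.532, and of 1.81e-05 and 0.000134 with the block. With the block the standard error was 0.07, and without it 0.45.

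**Figure D2:**
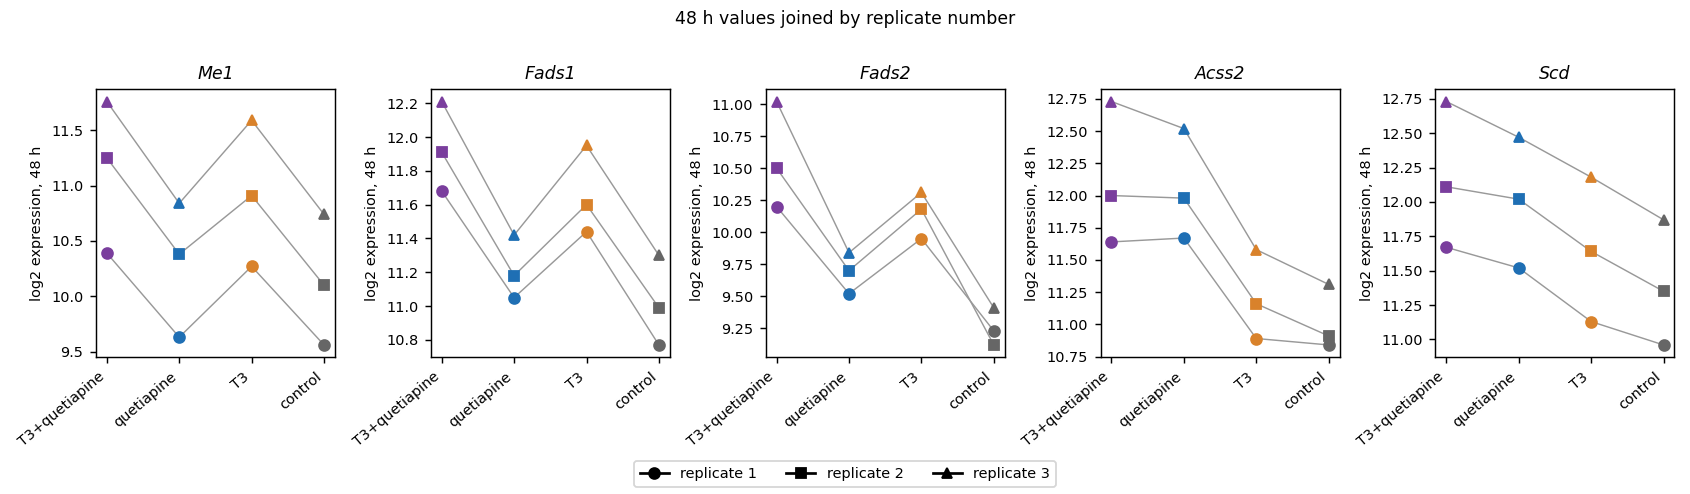
Log2 expression at 48 hours of Me1, Fads1, Fads2, Acss2 and Scd, with lines that join the arrays of 1 replicate number across T3+quetiapine, quetiapine, T3 and control. The 3 lines of Me1, Fads1 and Scd run nearly parallel, with replicate 3 at the top and replicate 1 at the bottom, so the differences within a replicate are more even than the group spread.

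The enzymes that build the chain had the smallest changes of the 10 genes with T3+quetiapine at 96 hours. Acaca, acetyl-CoA carboxylase, was at 10.20, 10.22 and 10.22 with T3+quetiapine at 96 hours, 9.91, 9.97 and 10.12 with quetiapine, 9.87, 9.80 and 9.96 with T3, and 9.90, 9.79 and 9.95 in control. The T3+quetiapine values lay above all others, while quetiapine, T3 and control overlapped. Acaca rose by 0.34 with T3+quetiapine (standard error 0.08, adjusted p = 0.00781), a 1.26-fold rise, and changed by 0.12 with quetiapine (95% interval −0.05 to 0.30) and by −0.00 with T3 (−0.18 to 0.17). Its second, dimmer probe set correlated with the first at r = 0.576 and changed by 0.26 with T3+quetiapine, which was not called (adjusted p = 0.196). Fasn, the fatty acid synthase, was at 12.21, 12.05 and 11.87 with T3+quetiapine, 12.06, 11.81 and 11.91 with quetiapine, 11.87, 11.59 and 11.79 with T3, and 11.59, 11.67 and 11.72 in control at 96 hours. Both groups with quetiapine lay above control, and T3 overlapped with it. Fasn changed by 0.27 with quetiapine (adjusted p = 0.187) and by 0.09 with T3 (adjusted p = 0.673), neither called in either fit. It rose by 0.38 with T3+quetiapine (standard error 0.11, adjusted p = 0.0191), a call that was lost without control replicate 1 or without T3+quetiapine replicate 1 or 2 (highest adjusted p = 0.0667). Its second probe set changed by 0.51 (adjusted p = 0.0596, and 0.00214 with the block). At 48 hours neither gene was called with any treatment in either fit, and their changes lay between −0.06 and 0.09.

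Elovl6, the elongase of palmitate, was at 11.15, 11.29 and 10.97 with T3+quetiapine at 96 hours, 11.12, 10.68 and 10.44 with quetiapine, 10.59, 10.32 and 10.03 with T3, and 9.97, 9.65 and 9.41 in control. None of the 3 treated groups overlapped with control. It rose by 1.46 with T3+quetiapine (standard error 0.20, adjusted p = 0.000307) and by 1.07 with quetiapine (adjusted p = 0.00969). The change of 0.64 with T3 was called only with the block (adjusted p = 0.0627, and 0.00157 with it), and for the second probe set of Elovl6 the change of 0.82 was called without it (adjusted p = 0.0463). At 48 hours Elovl6 was at 10.19, 10.45 and 10.82 with T3+quetiapine, 10.29, 10.64 and 10.85 with quetiapine, 9.95, 10.23 and 10.40 with T3, and 9.97, 10.08 and 9.87 in control. The groups with quetiapine lay above control, and T3 overlapped with it. The 48-hour changes of 0.51 with T3+quetiapine and 0.62 with quetiapine were called with the block alone (adjusted p = 0.0116 and 0.0237).

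Scd, the stearoyl-CoA desaturase, was at 12.03, 11.59 and 11.83 with T3+quetiapine at 96 hours, 11.55, 10.89 and 11.71 with quetiapine, 10.90, 10.98 and 11.57 with T3, and 10.53, 9.82 and 10.68 in control. Control replicate 2 was the lowest of these arrays, and each treated group lay above all controls. Scd rose by 1.47 with T3+quetiapine (standard error 0.27, adjusted p = 0.00203) and by 1.04 with quetiapine (adjusted p = 0.0471). The quetiapine call was lost without any 1 of the 96-hour arrays but quetiapine replicate 2 or T3 replicate 3 (highest adjusted p = 0.153), and with the block it stood at adjusted p = 0.0016. The change of 0.80 with T3 was called only with the block (adjusted p = 0.0839, and 0.00466 with it). At 48 hours Scd was at 11.67, 12.11 and 12.73 with T3+quetiapine, 11.52, 12.02 and 12.47 with quetiapine, 11.13, 11.64 and 12.18 with T3, and 10.96, 11.35 and 11.87 in control. All groups overlapped, and within each replicate the order was T3+quetiapine, quetiapine, T3, control. The 48-hour changes of 0.78, 0.61 and 0.25 in these 3 treatments were called only with the block (adjusted p = 2.28e-05, 0.00117 and 0.0193).

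Fads1 and Fads2, the delta-5 and delta-6 desaturases, changed more with T3 than with quetiapine at both times, and most with T3+quetiapine. Fads2 at 48 hours was at 10.20, 10.50 and 11.02 with T3+quetiapine, 9.52, 9.70 and 9.84 with quetiapine, 9.95, 10.18 and 10.31 with T3, and 9.23, 9.12 and 9.41 in control. Each treated group lay above control, and T3 lay above quetiapine. Fads2 rose by 1.32 with T3+quetiapine (standard error 0.18, adjusted p = 0.00291), a 2.50-fold rise, and by 0.89 with T3 (adjusted p = 0.0489), while its change with quetiapine was 0.44 (adjusted p = 0.618, and 0.0536 with the block). The T3 call was lost without any 1 of the 48-hour arrays but T3+quetiapine replicate 1 or 3 (highest adjusted p = 0.199) and stood at adjusted p = 0.000815 with the block. At 96 hours Fads2 was at 10.63, 10.08 and 10.12 with T3+quetiapine, 9.43, 9.05 and 9.46 with quetiapine, 9.61, 9.64 and 9.86 with T3, and 8.99, 9.06 and 9.19 in control. Quetiapine overlapped with control through its replicate 2, and the other treated groups did not. All T3+quetiapine values lay above all T3 values. It rose by 1.20 with T3+quetiapine (adjusted p = 0.000228) and by 0.62 with T3 (adjusted p = 0.0252, lost without T3 replicate 2 or 3 or control replicate 1 or 2, highest 0.0919). With quetiapine the change was 0.23 (95% interval −0.11 to 0.57).

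Fads1 was at 11.95, 11.84 and 12.11 with T3+quetiapine at 96 hours, 10.88, 10.98 and 11.40 with quetiapine, 11.23, 11.54 and 11.93 with T3, and 10.62, 10.97 and 11.39 in control. T3 and control overlapped across replicates, although T3 was higher within each replicate, and quetiapine was within 0.26 of its control in each. Fads1 rose by 0.98 with T3+quetiapine (standard error 0.22, adjusted p = 0.00614). The change was 0.58 with T3 (adjusted p = 0.12, and 0.0032 with the block) and 0.09 with quetiapine (95% interval −0.39 to 0.57). At 48 hours it was at 11.68, 11.91 and 12.21 with T3+quetiapine, 11.05, 11.18 and 11.42 with quetiapine, 11.44, 11.60 and 11.95 with T3, and 10.77, 10.99 and 11.30 in control. The groups with T3 lay above control and quetiapine overlapped with it. The rise of 0.91 with T3+quetiapine was called (adjusted p = 0.0174, lost without T3+quetiapine replicate 2 or 3 or control replicate 2, highest 0.0718), and the change of 0.64 with T3 only with the block (adjusted p = 0.15, and 0.000111 with it).

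**Figure D3:**
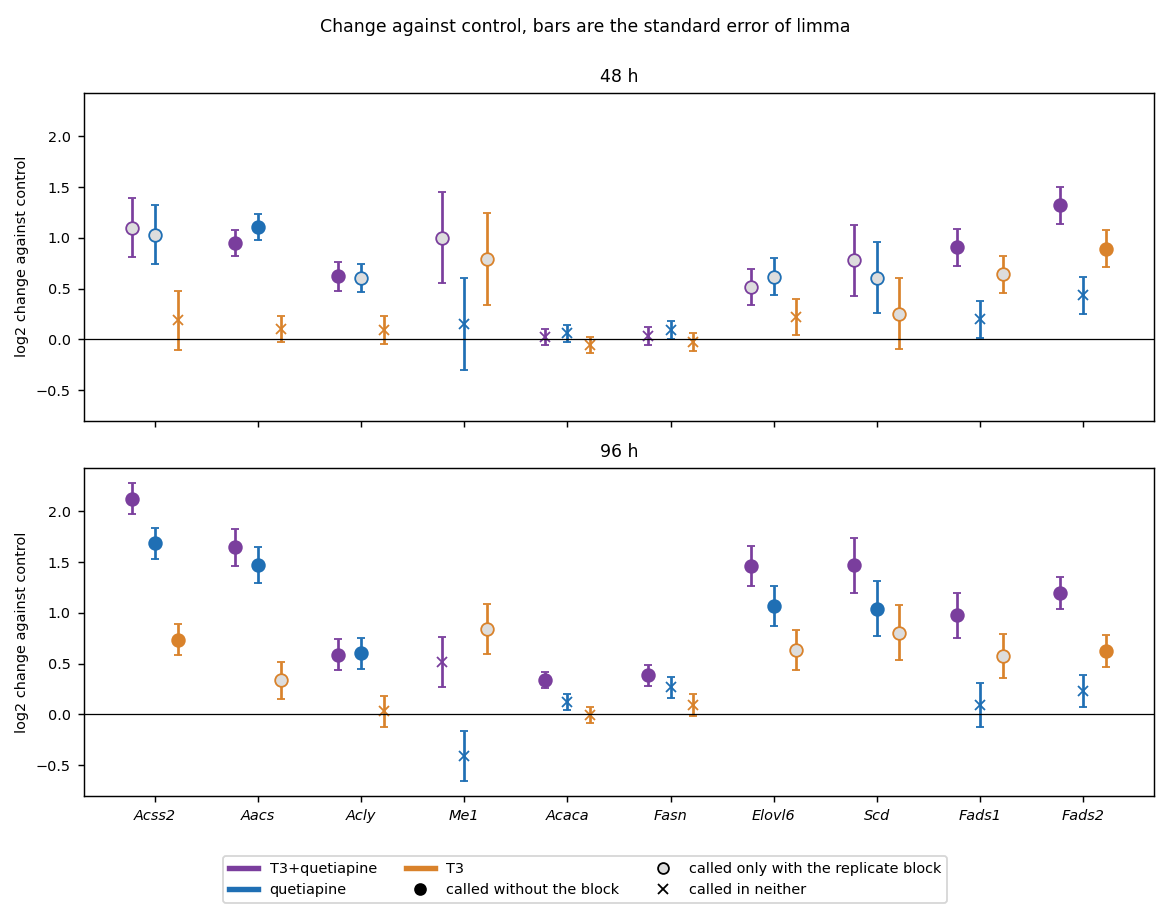
Log2 change against control of each gene with T3+quetiapine, quetiapine and T3 at 48 hours (top) and 96 hours (bottom), with limma's standard error as bars and the call shown by the symbol. At 96 hours T3+quetiapine has filled points for 9 genes, all but Me1, and the changes of Acaca and Fasn stay under 0.4.

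Counted together, the 10 genes were called in 1 direction against control, upwards. With T3+quetiapine at 96 hours 9 of 10 rose, where 15.2% of all genes rose, and the same 9 rose with the block, where 19.9% did. The values of all 10 lay above control without overlap, as they did for 20.3% of all genes. With quetiapine at 96 hours 5 rose, Acss2, Aacs, Acly, Elovl6 and Scd, where 4.21% of all genes rose, and the block called the same 5, where it called 8.96% of all genes higher. Without the block, leaving out any 1 array of that time lowered this count, as Acly, Scd or both were no longer called. With T3 at 96 hours 2 rose, Acss2 and Fads2, where 6.58% of all genes rose, and with the block 7, all but Acly, Acaca and Fasn, where 11.9% rose. At 48 hours 4 rose with T3+quetiapine (3.12% of all genes), 1 with quetiapine (0.134%) and 1 with T3 (1.06%). With the block these 48-hour counts were 8, 5 and 4, where 10.8%, 1.86% and 5.44% of all genes rose. The median change of the 10 genes at 96 hours was 1.09 with T3+quetiapine, 0.44 with quetiapine and 0.60 with T3, and the medians of all genes at both times lay between −0.02 and 0.00. These comparisons share the control arrays.

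Quetiapine and T3 were also set against each other. At 96 hours quetiapine cultures exceeded T3 cultures in Acss2 by 0.95 (adjusted p = 0.0097) and in Aacs by 1.14 (adjusted p = 0.0085), 2 genes of 10 where 1.01% of all genes were higher. Me1 was the 1 gene lower, where 2.3% of all genes were lower. Without T3 replicate 2 none of these 3 was called, with adjusted p values of 0.0528 for Acss2 and 0.0517 for Aacs. With the block Acly and Elovl6 were also higher with quetiapine, by 0.57 and 0.44 (adjusted p = 0.000844 and 0.0226), and Fads1 was also lower, with a change of −0.48 (adjusted p = 0.016). That made 4 genes higher and 2 lower, where 6.66% and 7.77% of all genes were. Scd differed by 0.24 (95% interval −0.36 to 0.83) and was not called in either fit. At 48 hours only Aacs was called higher for quetiapine against T3, by 1.00 (adjusted p = 0.00304), where 0.696% of all genes were higher. With the block 4 genes were higher, Acss2, Aacs, Acly and Scd (5.14% of all genes), and 3 were lower, Me1, Fads1 and Fads2 (6.91%).

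**Figure D4:**
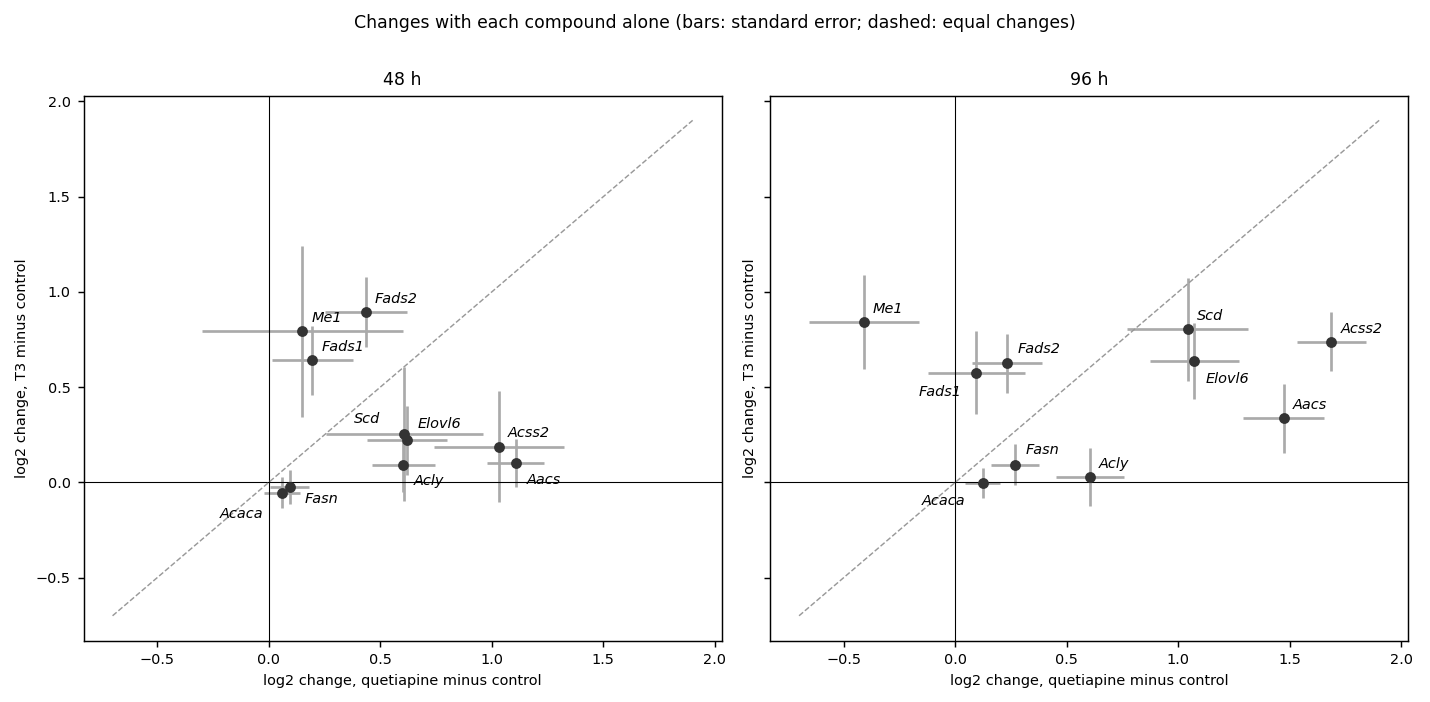
Log2 change against control with quetiapine (horizontal) and with T3 (vertical) for each gene at 48 and 96 hours, with standard errors as bars and a dashed line where both are equal. Both changes use the same control arrays. At 96 hours Me1, Fads1 and Fads2 lie above the line, and Acss2, Aacs and Acly below it with changes of 1.69, 1.47 and 0.60 with quetiapine.

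Adding a second compound to the first was read in 2 ways. T3+quetiapine against quetiapine at 96 hours, which shows what T3 added, called 3 genes, where 4.36% of all genes were higher: Fads2 by 0.97 (adjusted p = 0.00538), Me1 by 0.93 (adjusted p = 0.0459) and Fads1 by 0.88 (adjusted p = 0.0339). The Me1 call was lost without replicate 2 of control or T3 or without any 1 array of quetiapine or T3+quetiapine (highest adjusted p = 0.132). The Fads1 call was lost without T3 replicate 2, quetiapine replicate 1 or 2 or any 1 T3+quetiapine array (highest adjusted p = 0.113). With the block 6 genes were called (10.1% of all genes), with Acss2, Acaca and Elovl6 added. At 48 hours limma called none without the block (2 at an unadjusted p under 0.05), where 0.992% of all genes were higher, and Me1, Fads1 and Fads2 were with it (4.52%).

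T3+quetiapine against T3 at 96 hours, which shows what quetiapine added, called Acss2 by 1.39 (adjusted p = 0.00323) and Aacs by 1.31 (adjusted p = 0.00844), where 1.29% of all genes were higher. The Aacs call was lost without T3 replicate 2 (adjusted p = 0.053). With the block 8 genes were called, all but Me1 and Fasn, where 6.06% of all genes were higher. At 48 hours limma called none of the 10 (4 at an unadjusted p under 0.05), as 0% of all genes were higher, and the block called Acss2, Aacs, Acly and Scd (0.457%).

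The interaction, which is the change with T3+quetiapine less the sum of both single changes, was called for none of the 10 genes at either time in either fit of limma, and for 0 at an unadjusted p under 0.05. Over all genes 0% passed upwards at 48 hours, and 0.00703% upwards and 0.0422% downwards at 96 hours. The estimates for the 10 genes at 96 hours lay between −0.37 for Scd (95% interval −1.22 to 0.47) and 0.34 for Fads2 (−0.14 to 0.83). The intervals reach far enough that departures from a sum of log2 changes could have been missed.

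Between 96 and 48 hours few of the genes changed within a treatment. Elovl6 was higher at 96 than at 48 hours with T3+quetiapine, by 0.65 (adjusted p = 0.0231 from 1 limma fit over 24 arrays). It was the only 1 of 10 where 11.3% of all genes were higher, so the count lay near the share of all genes. The Elovl6 call was lost without replicate 1 or 2 of T3+quetiapine at 48 hours or replicate 2 at 96 hours (highest adjusted p = 0.135). The beta-actin 3' to 5' difference on the log2 scale, a measure of RNA integrity, also differed between these groups without overlap, at 0.704 to 0.768 at 96 hours and 0.581 to 0.585 at 48 hours. It did so in control and with T3 as well. The same difference for GAPDH overlapped between the times with T3+quetiapine, at −0.132 to −0.092 at 96 hours and −0.116 to −0.0804 at 48 hours. The part of RNA integrity was not tested. The block in the fit over 24 arrays takes a replicate's offset as equal at both times. With it Aacs and Acaca were higher as well, by 0.41 and 0.19 (adjusted p = 0.0337 and 0.00985), 3 of 10 where 15.5% of all genes were. Limma called no gene with quetiapine or with T3 in either fit, and 1 in each at an unadjusted p under 0.05, where 2.58% of all genes were higher and 0.844% lower with quetiapine, and 3.36% and 4.97% with T3. In control Scd had the largest difference between the times, −1.05, called only with the block (adjusted p = 0.389, and 0.0139 with it, where 0.0141% of all genes were lower, and 0.943% with it), and all 3 of its 96-hour control values lay below all 48-hour values. The change with T3+quetiapine against control was larger at 96 than at 48 hours for Elovl6 by 0.95 (adjusted p = 0.0496), where 4.91% of all genes were, and with the block for 4 genes, where 9.43% were. Leaving out any 1 of 15 of the 24 arrays ended the Elovl6 call (highest adjusted p = 0.139).

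Over the 24 arrays, which share 3 replicate numbers and 8 conditions, the genes fell into looser and tighter pairs. As a description, Pearson's r was 0.913 between Acss2 and Aacs, 0.878 between Aacs and Acly and 0.896 between Acss2 and Elovl6. Fads1 correlated with Fads2 at 0.880 and with Me1 at 0.842. Between these 2 sets it ranged widely, with −0.21 for Acly with Me1, −0.08 for Aacs with Me1, 0.126 for Acly with Fads1, 0.531 for Acss2 with Fads1 and 0.626 for Acss2 with Fads2. Among all other genes, those closest to Aacs were Fdft1 (r = 0.990), Msmo1 (0.977) and Lss (0.976), all enzymes of sterol synthesis. Closest to Acss2 were Cyp51 (0.975), Tmem254 (0.967) and Nsdhl (0.953), and closest to Acly were Mvd (0.964), Dhcr7 (0.958) and Fdps (0.936). Fads1 and Me1 shared a neighbour in Elovl5, an elongase of polyunsaturated fatty acids, at 0.929 and 0.885. Elovl6 was closest to Rab33a (0.960), Fads2 to Nelfb (0.939), Fasn to Gtf3c5 (0.906), Scd to Ggct (0.844) and Acaca to Eif3c (0.808).

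Further genes of acetyl-CoA and NADPH supply moved in both directions. Of 16 measured, 6 rose and 3 fell with T3+quetiapine at 96 hours, 2 rose and 3 fell with quetiapine, and 3 rose and 1 fell with T3. Of all genes 15.2% rose and 20% fell, 4.21% rose and 3.04% fell, and 6.58% rose and 8.08% fell in these treatments. The parts of the list that fell with T3+quetiapine and with T3 thus lay near the shares of all genes. With the block the counts were 6 and 5, 3 and 4, and 7 and 4, where the shares over all genes were 19.9% and 27.6%, 8.96% and 12.5%, and 11.9% and 18.2%. Slc25a1, the mitochondrial citrate carrier that delivers the substrate of Acly, rose by 1.00 with T3+quetiapine (adjusted p = 0.000172) and by 0.64 with quetiapine (adjusted p = 0.0122), and changed by 0.25 with T3 (adjusted p = 0.237, and 0.0148 with the block). Acss1, the mitochondrial counterpart of Acss2, went the other way, with −1.60 with T3+quetiapine (adjusted p = 0.000342), −1.07 with quetiapine (0.0173) and −0.67 with T3 (0.0774, and 0.000925 with the block). Idh2, the mitochondrial NADP-dependent isocitrate dehydrogenase, changed by −1.54, −0.72 and −0.93 in the same treatments and was called in each. Me2, a mitochondrial malic enzyme, rose by 1.10, 0.64 and 0.55 and was also called in each.

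Of 18 further genes of elongation, desaturation and fatty acid activation, 7 rose and 3 fell with T3+quetiapine at 96 hours, 3 rose with quetiapine and 3 with T3, beside 15.2%, 4.21% and 6.58% of all genes that rose and 20% that fell with T3+quetiapine. With the block 8 rose and 3 fell, 5 rose and 4 fell, and 7 rose and 2 fell, beside 19.9%, 8.96% and 11.9% of all genes that rose and 27.6%, 12.5% and 18.2% that fell. Elovl1, which lengthens saturated very long chains, rose by 2.15 with T3+quetiapine (standard error 0.10, adjusted p = 2.19e-07), by 1.45 with quetiapine and by 1.47 with T3. Elovl2, an elongase of polyunsaturated chains, was lower with T3+quetiapine, with a change of −1.85 (adjusted p = 0.00353). Acsl6, an acyl-CoA synthetase, rose by 1.33 with T3 (adjusted p = 0.013) and was lower with quetiapine than with T3, with a change of −2.19 (adjusted p = 0.00258). Hacd1, a dehydratase of the elongation cycle, rose by 1.00 with T3+quetiapine, 0.59 with quetiapine and 0.56 with T3. Scd2, the brain form of stearoyl-CoA desaturase, was not called in either fit, with changes of 0.18, 0.03 and 0.08.

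Among 18 regulators of fatty acid synthesis 6 rose with T3+quetiapine at 96 hours, 2 with quetiapine and 4 with T3, and none fell without the block, beside 15.2%, 4.21% and 6.58% of all genes that rose. With the block the counts were 8 higher and 1 lower, 5 and 2, and 6 and 0, beside 19.9%, 8.96% and 11.9% higher and 27.6%, 12.5% and 18.2% lower. Thrsp, a thyroid hormone responsive gene of lipogenic tissue known as Spot 14, rose by 3.02 with T3 (standard error 0.62, adjusted p = 0.0105) and by 3.00 with T3+quetiapine (adjusted p = 0.00385). With quetiapine its change was 0.53 (adjusted p = 0.704), and quetiapine against T3 gave −2.48 (adjusted p = 0.0631, and 0.00494 with the block). Thrb, a thyroid hormone receptor, rose by 0.95 with T3 and 0.90 with T3+quetiapine (adjusted p = 0.0287 and 0.0163). Insig1, which retains SREBP proteins in the endoplasmic reticulum, rose by 1.81 with T3+quetiapine (adjusted p = 6.9e-06), and Mbtps2, a protease that releases them, by 0.50 (adjusted p = 0.000161). Srebf1, the gene of the SREBP form tied to fatty acid synthesis, changed by −1.15 with T3+quetiapine and was called only with the block (adjusted p = 0.0667, and 0.00144 with it).

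**Figure D5:**
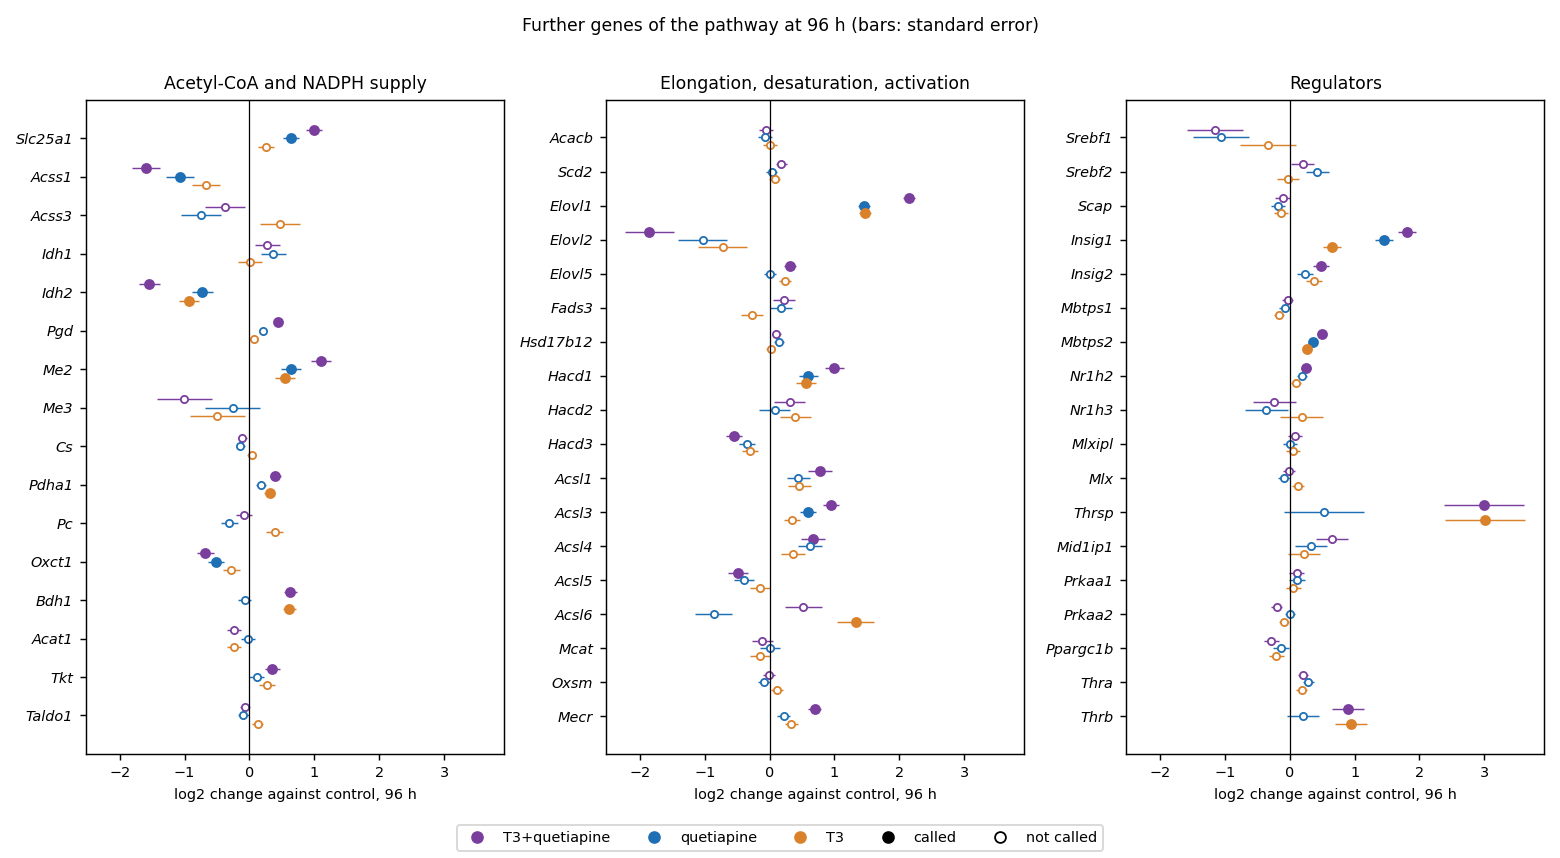
Log2 change against control at 96 hours of the further genes of supply, of elongation, desaturation and activation, and of regulation, with T3+quetiapine above quetiapine above T3 for each gene, and standard errors as bars. Filled points were called without the block. Thrsp has the largest changes, 3.02 with T3 and 3.00 with T3+quetiapine, and Acss1 and Idh2 lie below 0 in all 3 treatments.

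The same beta-actin difference was 0.704 to 0.768 with T3+quetiapine at 96 hours, 0.601 to 0.723 with quetiapine, 0.674 to 0.766 with T3 and 0.643 to 0.665 in control. At 48 hours it was 0.581 to 0.585, 0.611 to 0.647, 0.566 to 0.622 and 0.577 to 0.623 in the same groups. At 96 hours both groups with T3 lay above all controls in it. The GAPDH difference at 96 hours was −0.132 to −0.092 with T3+quetiapine, −0.113 to −0.0726 with quetiapine, −0.0756 to −0.0267 with T3 and −0.107 to −0.0565 in control. In it each treated group overlapped with control. The part of these differences in the results was not tested.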

How the data were processed

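Rat OPC cultures in 8 groups of 3 were measured on 24 Affymetrix arrays. The authors deposited log2 expression values made by RMA, and these were used unaltered; the RMA version is not given in the sources. Day 0 cultures and raw signals were not analysed here. Of 31099 probe sets 57 controls were left out, and of the 31042 tested 20826 had 1 symbol, 436 several and 9780 none.

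For each time, limma 3.58.1 (R 4.3.3) fitted group means to the 12 arrays without a replicate term. Contrasts between times came from 24 arrays. P values were adjusted by the method of Benjamini and Hochberg, and 95% intervals were left unadjusted. On simulated data for quetiapine against control at 96 hours, over 31042 probe sets, the fit recovered 82% of log2 changes of 1 and 96% of changes of 2. The simulation drew independent normal errors for each array, without shared differences between replicates, and changed only a small part of the probe sets. These shares therefore need not hold for the real arrays. The number of arrays limits the precision.

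The replicate number pairs the arrays, since the design text gives each biological replicate a sample of every condition. Deviations from the group means correlated at 0.43 to 0.777 in same-numbered pairs at 48 hours (−0.681 to −0.00478 in others) and at 0.309 to 0.69 at 96 hours (−0.583 to 0.243). Alternatives were the replicate block, arrays centred on their medians, brighter probe sets only, the mean of a gene's probe sets, a fold limit of 1.5, 1 fit over 24 arrays and leaving out each array.

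The 10 genes and all lists were chosen with earlier results of these data known. Named genes were all 10, up to 4 called genes with the largest change at 96 hours from each further list (Scd2, Srebf1 and the values against T3 were added after they were seen), and the genes with the highest Pearson r to each of the 10. Genes of these lists without a probe set of 1 symbol were not analysed here. A promoter motif count was planned but not run, as no promoter sequence was used here.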

Additional observations from a re-analysis of the deposited data

Results flagged for a closer look

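The change of Elovl6 with T3+quetiapine against control differed between the times. It was 1.46 at 96 hours and 0.51 at 48 hours, and the difference was 0.95 (standard error 0.28, adjusted p = 0.0496 from limma over 24 arrays, and 0.0281 with the replicate block). It had the same sign in 3 of 3 replicates. The block in that fit takes a replicate's offset as equal at both times. In each treated group, though, replicate 3 of Elovl6 was the highest at 48 hours and the lowest at 96 hours. The value with the block thus rests on an offset that these arrays did not keep. The group mean of Elovl6 went from 10.49 at 48 hours to 11.14 at 96 hours with T3+quetiapine, and from 9.97 to 9.67 in control. The lower level in control at 96 hours, not called in either fit, is thus part of the difference. For the second probe set of Elovl6 the difference was 1.10 and was called only with the block (adjusted p = 0.0767, and 0.0485 with it). The other 9 genes were not called for this difference without the block, and Acss2, Aacs and Acaca were with it (adjusted p = 0.0211, 0.0227 and 0.00817). Alternatives added after seeing the data kept the direction, but the call was lost with the mean of its probe sets (1.03, adjusted p = 0.0506) and without any 1 of 15 of the 24 arrays. These were all 3 T3+quetiapine arrays at 96 hours and replicates 1 and 2 at 48 hours, all 3 controls at 48 hours and replicates 2 and 3 at 96 hours, replicate 2 of quetiapine at both times, replicate 2 of T3 at both times and replicate 3 of T3 at 48 hours. Over all single arrays left out the difference was 0.81 to 1.12 (adjusted p = 0.0217 to 0.139).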

How the results depend on the processing

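The counts of the 10 genes called moved most with the replicate block, which gained 47 calls, lost 0 and reversed 0 of 210 values. With the block they were 4 for T3, 5 for quetiapine and 8 for T3+quetiapine against control at 48 hours, and 7, 4 and 3 for quetiapine against T3, T3+quetiapine against T3 and T3+quetiapine against quetiapine. At 96 hours they were 7 for T3 against control, 6 for quetiapine against T3, 8 for T3+quetiapine against T3 and 6 for T3+quetiapine against quetiapine. Between the times they were 1 in control and 3 with T3+quetiapine, and 4 in place of 1 for the change of the T3+quetiapine effect. The other counts stayed within 1.5 times under the block. A fit over 24 arrays gave 5 for T3+quetiapine against T3 at 96 hours. With brighter probe sets only, that count and the count for T3 against control at 96 hours were 4 each, and the mean of a gene's probe sets also gave 4 for T3. These 3 alternatives, and centred arrays, each gave 1 for T3+quetiapine against quetiapine at 48 hours. A fold limit of 1.5 moved no count by over 1.5 times. The causes were not tested.

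Without single arrays the counts ranged from 0 to 1 for T3 and for quetiapine and 2 to 5 for T3+quetiapine against control at 48 hours, 1 to 1 for quetiapine against T3, and 0 to 1 for T3+quetiapine against T3 and against quetiapine. At 96 hours they were 1 to 3 for T3, 3 to 4 for quetiapine and 8 to 9 for T3+quetiapine against control, 0 to 4 for quetiapine against T3, and 1 to 3 for T3+quetiapine against T3 and against quetiapine. For both interactions and for time in control, T3 and quetiapine they were 0 to 0, and for time with T3+quetiapine 0 to 3.

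Among the comparisons of groups and times, no value called without the block changed sign under any of these alternatives. Of the values not called, Acaca with T3 at 96 hours turned to 0.0095 with centred arrays and 0.057 as the mean of its probe sets, Acly in T3+quetiapine against quetiapine at 96 hours to 0.0043 with centred arrays, and Acaca in T3+quetiapine against quetiapine at 48 hours to 0.024 as the mean. Leaving out single arrays turned the sign of 44 log2 changes, none of them called without the block, over the following ranges. For 96 against 48 hours with T3 they were Me1 −0.054 to 0.60, Elovl6 −0.021 to 0.26, Fads1 −0.28 to 0.075, Acss2 −0.20 to 0.14 and Aacs −0.22 to 0.063. For 96 against 48 hours with T3+quetiapine they were Fads1 −0.090 to 0.18, Fasn −0.013 to 0.16 and Me1 −0.64 to 0.051. For 96 against 48 hours in control they were Acly −0.31 to 0.0060, Me1 −0.063 to 0.52 and Fads1 −0.23 to 0.16. For 96 against 48 hours with quetiapine they were Acss2 −0.13 to 0.30, Aacs −0.062 to 0.22 and Elovl6 −0.032 to 0.30. For T3 against control at 48 hours they were Fasn −0.078 to 0.045, Acly −0.023 to 0.25, Acaca −0.10 to 0.011 and Scd −0.011 to 0.52. For T3 against control at 96 hours they were Acaca −0.050 to 0.034 and Acly −0.080 to 0.19. For T3+quetiapine against T3 at 48 hours they were Me1 −0.11 to 0.58 and Fasn −0.014 to 0.10. For T3+quetiapine against control at 48 hours they were Acaca −0.022 to 0.073 and Fasn −0.028 to 0.065. For T3+quetiapine against quetiapine at 48 hours they were Acss2 −0.24 to 0.31, Scd −0.11 to 0.42, Elovl6 −0.27 to 0.041, Acly −0.040 to 0.064 and Acaca −0.080 to 0.015. For T3+quetiapine against quetiapine at 96 hours they were Acly −0.14 to 0.052. For the interaction at 48 hours they were Scd −0.37 to 0.18, Fads2 −0.23 to 0.18, Acly −0.23 to 0.039, Me1 −0.27 to 0.43, Fasn −0.11 to 0.015, Fads1 −0.070 to 0.21, Acss2 −0.42 to 0.12 and Acaca −0.045 to 0.070. For the interaction at 96 hours they were Aacs −0.31 to 0.0027, Acly −0.20 to 0.066, Me1 −0.19 to 0.32 and Fasn −0.057 to 0.11. For quetiapine against control at 48 hours they were Me1 −0.14 to 0.48. For quetiapine against control at 96 hours they were Fads1 −0.093 to 0.29. Of these 44, Scd for T3 against control at 48 hours was called with the block (adjusted p = 0.0193). The promoter motif count was not run. For the change of the T3+quetiapine effect, alternatives other than the block were run for Elovl6 alone and chosen after seeing the data.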
